A study of Mus musculus with 2 samples.

Results

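Of 18194 genes named on the arrays, 35 genes of blood and lymphatic vessels were described. Membership was set by gene symbol alone, but the list was drawn up with earlier results of these data known. They comprised 28 genes of blood endothelium and of the growth factors that act on it, and 7 genes of lymphatic endothelium with its growth factor Vegfc. All 35 were on the array, at 65 probe sets (groups of short probes against the same transcript) that carry 1 gene symbol. The value of a gene was that of its probe set with the highest mean over both arrays, and the other probe sets are given beside it. The samples were 2 Affymetrix arrays of the proximal section of the intestine, its upper part, 1 of wild-type (WT) mice and 1 of mice with a germline deletion of Cd36 (CD36KO). Both genotypes were on the C57BL/6 background and ate chow, and on each array the RNA was a pool of 3 animals. The labels used here give neither the age nor the sex of the animals. Each value is therefore 1 measurement, with no replicate error to set it against, and no test could be made. In such bulk RNA, more cells of a type and more RNA per cell cannot be told apart.

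Endothelial cells line every vessel. Blood endothelium is built and maintained by vascular endothelial growth factor (VEGF) acting on the receptors Kdr and Flt1 and by angiopoietins acting on Tek, and the cells are held together by Cdh5, Pecam1, Esam and Cldn5. In the villi of the small intestine a network of fenestrated capillaries, marked by Plvap, takes up water-soluble nutrients. A central lymphatic vessel, the lacteal, takes up chylomicrons, and it depends on the growth factor Vegfc, its receptor Flt4 (VEGFR3) and the transcription factor Prox1. CD36 itself is made by capillary endothelium as well as by enterocytes.

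Promoter sequence is shown for Emcn, which had the largest difference of the blood genes, for Vegfc, which had the largest of all 35, and for its receptor Flt4, which differed little. The letters are the 250 bases before the annotated start of each gene from RefSeq (build GRCm38.p6), which held entries for 19 of the 35 genes. Capitals mark GGAAG or its reverse complement CTTCC, a form of the core bound by ETS factors such as Erg and Ets1, both in the list.
Emcn, chr3:137340828-137341077, + strand: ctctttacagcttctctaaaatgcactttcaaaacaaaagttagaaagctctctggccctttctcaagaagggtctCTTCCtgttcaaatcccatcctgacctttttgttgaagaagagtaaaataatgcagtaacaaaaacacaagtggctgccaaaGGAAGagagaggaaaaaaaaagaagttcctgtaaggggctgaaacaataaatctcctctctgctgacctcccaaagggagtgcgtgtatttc
Vegfc, chr8:54077282-54077531, + strand: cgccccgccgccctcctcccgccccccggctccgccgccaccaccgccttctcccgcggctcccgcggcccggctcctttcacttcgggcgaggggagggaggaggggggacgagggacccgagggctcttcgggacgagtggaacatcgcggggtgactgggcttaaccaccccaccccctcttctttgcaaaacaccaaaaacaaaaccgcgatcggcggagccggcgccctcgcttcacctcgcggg
Flt4, chr11:49609429-49609678, + strand: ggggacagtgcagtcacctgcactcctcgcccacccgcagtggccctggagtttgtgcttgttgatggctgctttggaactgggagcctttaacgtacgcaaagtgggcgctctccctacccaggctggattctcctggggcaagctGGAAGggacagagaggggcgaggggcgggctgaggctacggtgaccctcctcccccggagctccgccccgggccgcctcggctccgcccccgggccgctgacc
The window of Emcn held 2 matches, that of Flt4 held 1 and that of Vegfc held 0. Of the 19 genes, 15 held at least 1 match at a listed start. Over single starts the share was 76.0% of 25 for the list and 64.1% of 32851 for all windows of this length. A match is a run of letters, and binding was not measured.

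The deposited values are on a log2 scale, and both arrays had a median of 4.38. Folds, percentages of change and summed signals are linear, while all other differences and medians, also those in brackets, are log2. Genes with at least 1 array at 4.51 or more were kept, a filter at the median of the brighter array's reading of every probe set. This kept 11981 genes, whose CD36KO minus WT differences had a median of -0.01 and an SD of 0.41. Cd36 was lower in CD36KO at each of its 3 probe sets, by 2.33-fold to 3.56-fold. The sources used here do not say whether these probe sets lie in the deleted part. For the control transcript of beta-actin, the 3' probe set stood above the 5' one by 2.28 in WT and by 1.34 in CD36KO. For GAPDH the values were 1.28 and 0.71, and for pyruvate carboxylase 3.59 and 3.28. Transcript coverage thus differed between the pools, by an amount that varied with the control. Epithelial markers were present, with 10 of 10 above the filter, but they do not check the segment that the label names. Markers of the distal small intestine were higher in CD36KO (median 2.08) and proximal markers lower (median -0.98), as given below.

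Blood endothelial genes were mostly a little higher in the CD36KO pool, and few differed by much. Of the 28, 22 were above the filter, and 2 of these, Pecam1 and Emcn, were at least 1.5-fold higher, beside 5.31% of all genes kept. None of the 22 was 1.5-fold lower, beside 3.31%. Under a lower threshold, 9 were at least 25% higher and 1 was at least 20% lower on the linear scale. Of all genes kept, these shares were 14.7% and 12.9%. The 9 include Pecam1 and Emcn, which passed the filter through CD36KO alone and so had to be higher to be kept. The share at this threshold was not computed over genes above the filter on both arrays. Without the filter, 25 of the 28 were above their WT value and 3 below it, beside 8693 above and 9377 below of all 18194 genes. Some of the 25 differed by very little, such as Gja4 (9.4e-05) and Ptprb (0.04). The median difference was 0.22 over the 22 kept and 0.22 over the 28, beside -0.01 over all genes kept. With 1 array per genotype these are counts on these arrays.

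**Figure D1:**
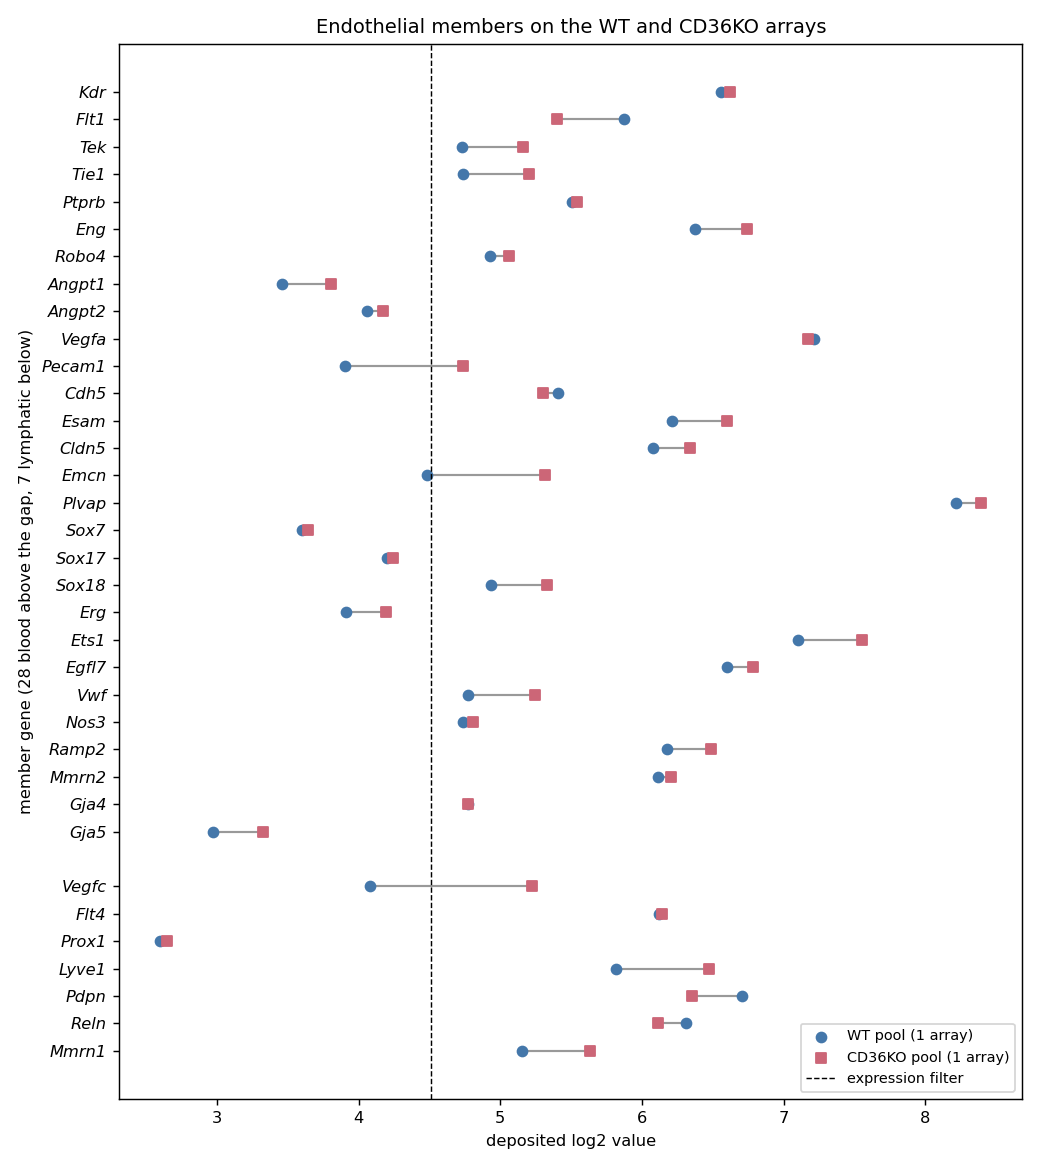
Deposited log2 value (horizontal axis) of each of the 35 genes (vertical axis; 28 blood genes above the gap and 7 lymphatic genes below it) on the WT array (circle) and the CD36KO array (square), with the filter of 4.51 as a dashed line. Each point is 1 array of a pool of 3 animals without error bars; the longest lines are those of Vegfc, Emcn and Pecam1, each of which crosses the filter.

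The receptors that read vessel growth signals were all above the filter on both arrays, and none reached 1.5-fold. Kdr (VEGFR2), the main receptor for VEGF signalling in blood vessels, read 6.56 in WT and 6.62 in CD36KO. Flt1 (VEGFR1), which binds VEGF and limits its access to Kdr, read 5.87 and 5.40, and with a difference of -0.47 it was the lowest of the 28 genes. Its other probe sets read differences of -0.39, 0.01 and -0.61, so 3 of its 4 probe sets were lower, 2 of them at values below the filter. Thus the 2 VEGF receptors of blood endothelium did not share a direction at the probe sets used.

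Tek (Tie2), the angiopoietin receptor, read 4.73 and 5.16. Tie1, its partner receptor, read 4.74 and 5.20. Their differences, 0.43 and 0.47, were nearly equal. Ptprb (VE-PTP), the phosphatase that restrains Tek, read 5.51 and 5.54, and its other probe sets differed by 0.17 and -0.12. Eng (endoglin), a co-receptor for TGF-beta and BMP9 on endothelium, read 6.38 and 6.74, with 0.14 at its other probe set. Robo4, a guidance receptor of endothelium, read 4.93 and 5.06. Of the 7 receptors 6 were higher and 1 lower, with a median of 0.13.

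The ligands of blood vessels were near their WT values or below the filter. Vegfa, the growth factor that drives sprouting and permeability, read 7.22 in WT and 7.17 in CD36KO, and its other probe set differed by -0.06. Angpt1, the ligand that activates Tek, read 3.46 and 3.81, with 0.18 at its other probe set. Angpt2, which can oppose it, read 4.06 and 4.17, with 0.00 at its other. Both angiopoietins were below the filter on both arrays, and their signal over background is unknown.

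The genes of junctions and of the cell surface held both blood genes past 1.5-fold. Pecam1 (CD31), an adhesion molecule at endothelial contacts that leukocytes and platelets also carry, read 3.90 in WT and 4.73 in CD36KO, 1.78-fold higher. Emcn (endomucin), a sialomucin of veins and capillaries, read 4.48 and 5.32, also 1.78-fold higher. Both were below the filter in WT and passed it through CD36KO alone, so they had to be higher to be kept. Among all 290 genes that passed in this way, 32.4% were at least 1.5-fold higher. Each has 1 probe set, so no other reading of these genes was available. Of the 20 blood genes above the filter on both arrays, 0 reached 1.5-fold higher, beside 4.74% of all genes above it on both arrays.

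The junction genes with clearer signal differed less. Cdh5 (VE-cadherin), the adhesion protein of endothelial adherens junctions, read 5.41 in WT and 5.30 in CD36KO, and its other probe set, below the filter, differed by 0.07. Esam, an adhesion molecule of endothelial tight junctions, read 6.22 and 6.60. Cldn5, the claudin that seals those junctions, read 6.07 and 6.34. Plvap, which forms the diaphragms of fenestrae, read 8.21 and 8.40, a difference of 0.18. Of these 4 genes, all above the filter on both arrays, 1 was lower, Cdh5 at -0.11, and the median was 0.22.

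Of the transcription factors, 2 of 5 were above the filter. Ets1, an ETS factor of endothelium that lymphocytes also make, read 7.10 and 7.55, with 0.37, 0.11 and -0.24 at its other probe sets. Sox18, a factor of vessel growth and of lymphatic specification, read 4.94 and 5.33. Erg, the ETS factor that maintains endothelial identity, read 3.91 and 4.19, with a difference of 0.00 at its other probe set. Sox17, which acts in arteries, read 4.20 and 4.24, with 0.27 at its other probe set. Its relative Sox7 read 3.60 and 3.64, with -0.03 at its other. The last 3 genes were below the filter on both arrays.

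Secreted and signalling genes were all higher, none by 1.5-fold. Vwf, the clotting protein stored in endothelium and in platelets, read 4.77 and 5.24, a difference of 0.47. Ramp2, the receptor partner that lets endothelium respond to adrenomedullin, read 6.18 and 6.49. Egfl7, a matrix-bound protein secreted by endothelium, read 6.60 and 6.78, with 0.25, 0.20 and -0.34 at its other probe sets. Mmrn2, a matrix protein of endothelium that binds VEGF, read 6.11 and 6.20, and its 3 other probe sets were also higher, by 0.01 to 0.25. Nos3, the nitric oxide synthase of endothelium, read 4.74 and 4.81. The 5 genes had a median of 0.18.

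The connexins of arterial endothelium gave little to compare. Gja4 read 4.78 on both arrays. Gja5 read 2.98 and 3.32, below the filter on both.

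**Figure D2:**
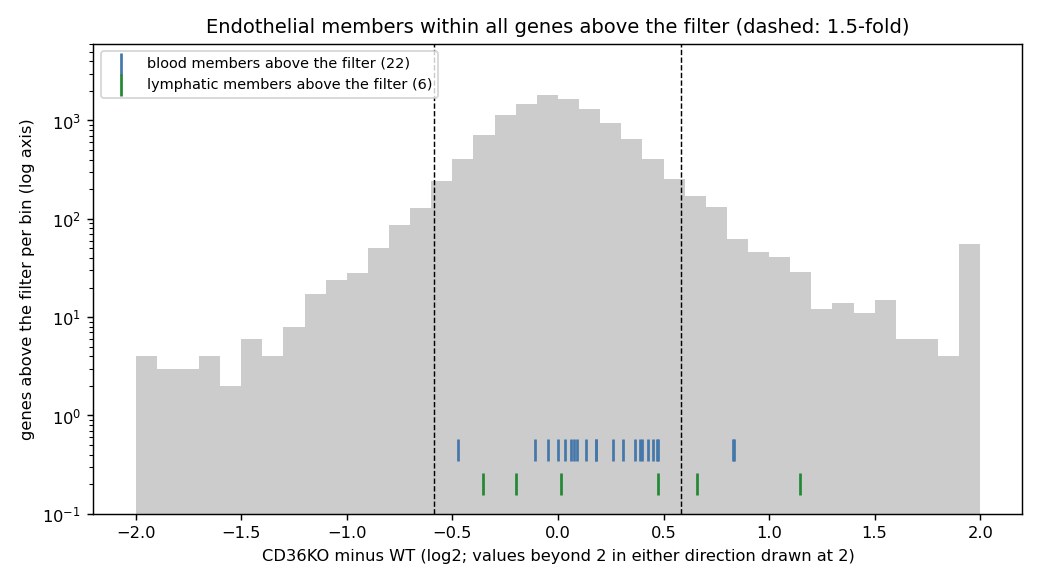
Histogram of the CD36KO minus WT difference (horizontal axis, log2) of the 11981 genes kept (vertical axis, genes per bin on a log scale), with the 22 blood and 6 lymphatic genes above the filter as ticks and 1.5-fold as dashed lines. The blood ticks lie between -0.47 and 0.83 and the lymphatic ticks between -0.35 and 1.15; tick height has no meaning.

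Lymphatic genes differed in both directions. Of the 7, 6 were above the filter, 2 of them at least 1.5-fold higher and 0 lower, beside 5.31% and 3.31% of all genes kept. Vegfc, 1 of the 6, was at least 2-fold higher, beside 1.61% of all genes kept; 0 of either group were 2-fold lower, beside 0.626%. The median was 0.25 over the 6 kept and 0.05 over the 7. Over the 5 above the filter on both arrays, which leave out Vegfc, it was 0.02. Of these 5, 1 reached 1.5-fold higher, beside 4.74% of all genes above the filter on both arrays. At the lower threshold, 3 of the 6 were at least 25% higher and 1 at least 20% lower, beside 14.7% and 12.9%. The 3 include Vegfc, which passed the filter through CD36KO alone.

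Vegfc, the ligand that drives lymphatic growth through Flt4, read 4.08 in WT and 5.23 in CD36KO, 2.21-fold higher. Another probe set read 4.01 and 4.95, a difference of 0.94, and the remaining one read 3.93 on both arrays. All 3 WT readings were below the filter, so the fold rests on dim WT values whose signal over background is unknown. Flt4, its receptor, read 6.12 and 6.14, with -0.03 at the other probe set. The ligand was thus higher in CD36KO at 2 of 3 probe sets, while the receptor read nearly the same value on both arrays.

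Lyve1, a hyaluronan receptor of lymphatic endothelium that some macrophages also carry, read 5.82 in WT and 6.48 in CD36KO, 1.58-fold higher. Its other probe set read 5.68 and 5.81, a difference of 0.13. Lyve1 was the sole gene of the 35 that was above the filter on both arrays and past 1.5-fold, and it passed at 1 of its 2 probe sets. With the mean over probe sets its difference was 0.39. Prox1, the transcription factor that specifies lymphatic endothelium and that enteroendocrine cells also use, was below the filter at all 3 probe sets and read 2.60 and 2.65 at the one used. A difference in this defining factor of the lineage was not detectable at this signal.

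Pdpn (podoplanin), a mucin-like protein of lymphatic endothelium and of some fibroblasts, read 6.71 in WT and 6.35 in CD36KO, 1.28-fold lower. Reln, a large glycoprotein secreted by lymphatic endothelium, read 6.31 and 6.11, with -0.16 at its other, dim probe set. Mmrn1, a multimerin of lymphatic endothelium and of platelets, read 5.16 and 5.63, a difference of 0.47, with -0.14 at a probe set below the filter. The surface and secreted lymphatic genes with clear signal thus stood on both sides of their WT values.

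The probe sets of a gene did not always share a sign. Of 19 genes with several, 7 had the same sign at all of them and 12 did not. This share was not computed over all genes. Some of the signs rest on dim readings that differ by almost nothing, such as those of Erg (0.00) and Prox1 (-0.00065). Of the 42 probe sets above the filter, 33 were of blood genes and 9 of lymphatic genes. Among them 2 blood and 3 lymphatic probe sets reached 1.5-fold higher, beside 6.86% of all named probe sets above it. In both groups 0 were 1.5-fold lower, beside 3.46%. These 5 belonged to Pecam1, Emcn, Vegfc (2 probe sets) and Lyve1. Those of Pecam1, Emcn and Vegfc were below the filter in WT, so they had to be higher to be kept. The median was 0.18 over the 33 and 0.13 over the 9. Probe sets on 1 array share its RNA and are not replicates.

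**Figure D3:**
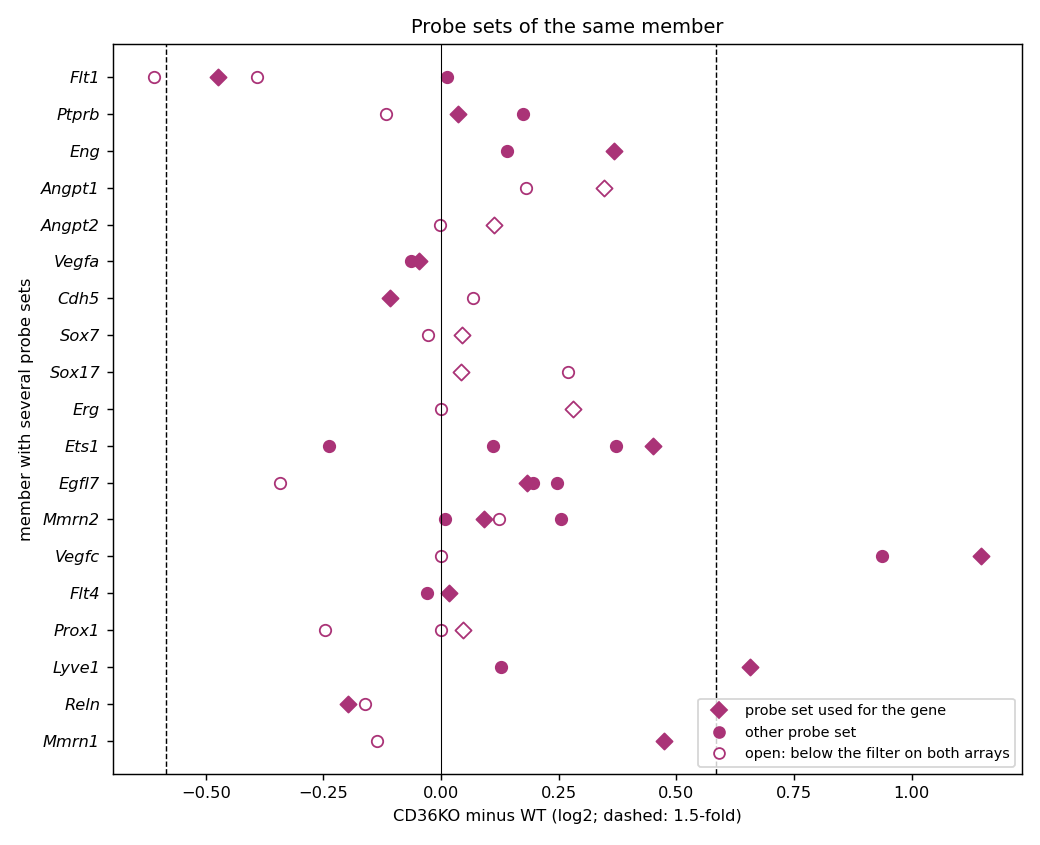
CD36KO minus WT difference (horizontal axis, log2) at every probe set of the 19 genes with several (vertical axis). Diamonds are the probe sets used for the gene, circles the others, and open symbols are below the filter on both arrays; dashed lines mark 1.5-fold. Vegfc has 2 probe sets past 1.5-fold and 1 at 0.00, Lyve1 has 1 past it and 1 at 0.13, and the points of Flt4 lie near 0.

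Further genes of vessels were read from other lists. Of 24 further blood endothelial genes, 16 passed the filter, 3 of them through CD36KO alone. Of the 16, 4 reached 1.5-fold higher and 0 lower, with a median of 0.34. Over the 13 above the filter on both arrays, the median was 0.33. Of these 13, 3 reached 1.5-fold higher, beside 4.74% of all genes above it on both arrays. For this list and those below, the shares of all genes kept at 1.5-fold were 5.31% higher and 3.31% lower. Tm4sf1, a surface protein of endothelium and of other cells, was 2.07-fold higher, with 0.58 and -0.11 at its other probe sets. Cd34, a sialomucin of endothelium and fibroblasts, read 5.52 in WT and 6.33 in CD36KO, 1.76-fold higher. Icam2, a leukocyte adhesion molecule, was 1.74-fold higher from a WT value of 4.10, under the filter, and Ecscr, a regulator of endothelial migration, was 1.65-fold higher. Cd34, Ecscr and Tm4sf1 were above the filter on both arrays.

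Genes of the VEGF, Notch and BMP pathways of vessels had no common direction. Of 24, 22 passed the filter, 11 higher and 11 lower, with a median of 0.02 (-0.01 under quantile normalization and -0.24 with the 75th percentile filter); 2 were at least 1.5-fold higher and 0 lower. Vegfd, which like Vegfc acts on Flt4, read 4.12 in WT, under the filter, and 5.67 in CD36KO, 2.94-fold higher, and its other probe sets differed by 0.31 and 0.72. Notch4, the Notch receptor of endothelium, was 1.53-fold higher from 4.14, also under the filter, with 0.00 and 0.31 at its other probe sets. Vegfd and Notch4, the 2 genes past 1.5-fold, thus passed the filter through CD36KO alone. Over the 20 genes above the filter on both arrays the median was -0.01. Of these 20, 0 reached 1.5-fold higher, beside 4.74% of all genes above it on both arrays. Angptl4, an inhibitor of lipoprotein lipase, was 1.47-fold lower, with a log2 difference of 0.04 at its other probe set. Adm, the ligand of the receptor that Ramp2 completes, was 1.34-fold higher, 0.43 in log2, beside 1.21 in log2 at its other probe set. Nrp2, a co-receptor for Vegfc, read 6.66 and 6.71, with other probe sets from -0.43 to 0.10 (chosen after its values were seen). Both ligands of Flt4 were thus higher in CD36KO from WT values under the filter.

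Of 16 further lymphatic genes on the array, 10 were above the filter, 8 of them higher and 2 lower. Their median was 0.24 (0.03 with the mean over probe sets), and 1 was at least 1.5-fold higher. This was Itga9, an integrin chain of lymphatic valves that muscle also makes, at 2.57-fold, with 0.09 and 0.31 at its other probe sets. Nr2f2, a factor of veins and lymphatics, Thy1 and Fgl2 differed by 0.30, 0.29 and 0.27, with other probe sets from -0.43 to 0.17 for Nr2f2 and at 1.01 for Fgl2. Foxc2, the factor of lymphatic valves, read 2.65 on both arrays, under the filter (chosen after its values were seen). Of 11 leukocyte adhesion molecules of vessels, 8 were above the filter and 0 of these reached 1.5-fold, with a median of 0.30. Jam2, Madcam1 (the gut homing receptor), Ackr1 (a chemokine receptor of venules) and Jam3 differed by 0.54, 0.41, 0.39 and 0.31, Jam2 with other probe sets from -0.46 to 0.24 and Jam3 with -0.07.

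Markers of other cells that lie beside vessels, or share genes with them, moved in the same pools. Of 11 fibroblast markers, 9 passed the filter and 7 of them reached 1.5-fold, all higher, with a median of 1.14 (0.71 with the mean over probe sets); their summed signal was 3545 in WT and 7327 in CD36KO, a ratio of 2.07. The summed signal of the 28 blood genes was 1601 and 1852, a ratio of 1.16, and that of the 7 lymphatic genes 369 and 404, a ratio of 1.10. Lum, Col1a1, Dcn and Col3a1, which encode collagens and proteoglycans, were 2.88-fold, 2.58-fold, 2.40-fold and 2.24-fold higher, although other probe sets of Col1a1 and Dcn read 0.06 and -0.08. Among 13 pericyte and smooth muscle markers, 12 passed the filter and 5 of them reached 1.5-fold, all higher, with a median of 0.26 and a ratio of summed signal of 1.30; the median was 0.65 without _x_at and _s_at probe sets, 0.49 with the mean over probe sets and 0.13 with the probe set of smallest difference. Kcnj8, a potassium channel subunit of mural cells, was 1.97-fold higher, Tagln and Actg2 1.79-fold, and Myh11 1.74-fold (0.14 at its other probe set). The pericyte genes Rgs5 and Pdgfrb, chosen after their values were seen, differed by 0.07 and -0.18 at the probe sets used, but by 0.33 to 1.08 and by 0.51 at their others.

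Cells that carry some of the vessel genes were present as well. Of 9 leukocyte markers, 8 were above the filter, 6 of them higher and 2 lower. Their median was 0.23, and the ratio of summed signal of the 9 was 1.15. Cd68, a macrophage protein, was 3.28-fold higher from 3.46, under the filter, and so passed it through CD36KO alone. Ms4a1, the B cell protein CD20, was 1.94-fold higher (0.53 at its other probe set). Ptprc (CD45) and Adgre1 differed by 0.29 and 0.28, with 0.17 at the other probe set of Ptprc. The 2 lower genes, named for their direction, were Cd3e at -0.12 and Cd8a at -0.16, the latter with others from -0.14 to 0.14. Of 8 platelet markers, 5 were above the filter, with a median of 0.20; Gp1bb was 1.69-fold higher (0.19 at its other probe set), Pf4, Itga2b and Treml1 differed by 0.26, 0.20 and 0.19, and Ppbp was below the filter on both arrays. The 3 red blood cell markers on the array were below the filter on both arrays, Hba-a1 at 3.42 and 3.44. Their part in the differences of the vessel genes was not tested.

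The remaining lists moved as follows. Epithelial markers had a median of 0.08, with Krt19 1.63-fold higher, Krt18 and Epcam differing by 0.35 and 0.33 (0.06 at the other probe set of Epcam) and the brush border enzyme Alpi by -0.37. Distal small intestine markers gave a median of 2.08 in log2, with 8 of 8 past 1.5-fold. Fabp6, Fgf15, Tmigd1 and Guca2a differed most, by 6.67, 4.11, 3.56 and 2.08 in log2. For proximal markers the median was -0.98, with 5 of 8 at least 1.5-fold lower. Pdx1, Trpv6, Slc40a1 and Onecut2 differed most, by -1.26, -1.16, -1.10 and -1.03 in log2. Other probe sets read 0.00 for Pdx1, -0.53 for Slc40a1 and -1.66 to -1.10 for Onecut2. For pancreas acinar markers the median was 1.60, with 9 of 9 at least 1.5-fold higher. Cpa1, Ctrb1, Cela2a and Cel differed most, by 2.40, 1.99, 1.93 and 1.81 in log2. Enteroendocrine markers had a median of -0.46, with Cck, Ghrl, Gip and Chgb at -0.57, -0.55, -0.54 and -0.46. The part of segment and of attached tissue in the vessel values was not tested.

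Lists with few genes above the filter gave values near 0 or mixed ones. Adipocyte markers had a median of -0.17 over 4 (Retn -0.41, Cidec -0.29, Fabp4 0.22, with others from -0.24 to 0.21, and Adipoq -0.05), and neuron and glia markers one of 0.08 over 3 (Uchl1 0.36, Sox10 0.08 and Prph -0.07). Of 6 mesothelial markers 2 were above the filter, Upk3b, 1.63-fold higher from 4.11, and Upk1b at -0.06.

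**Figure D4:**
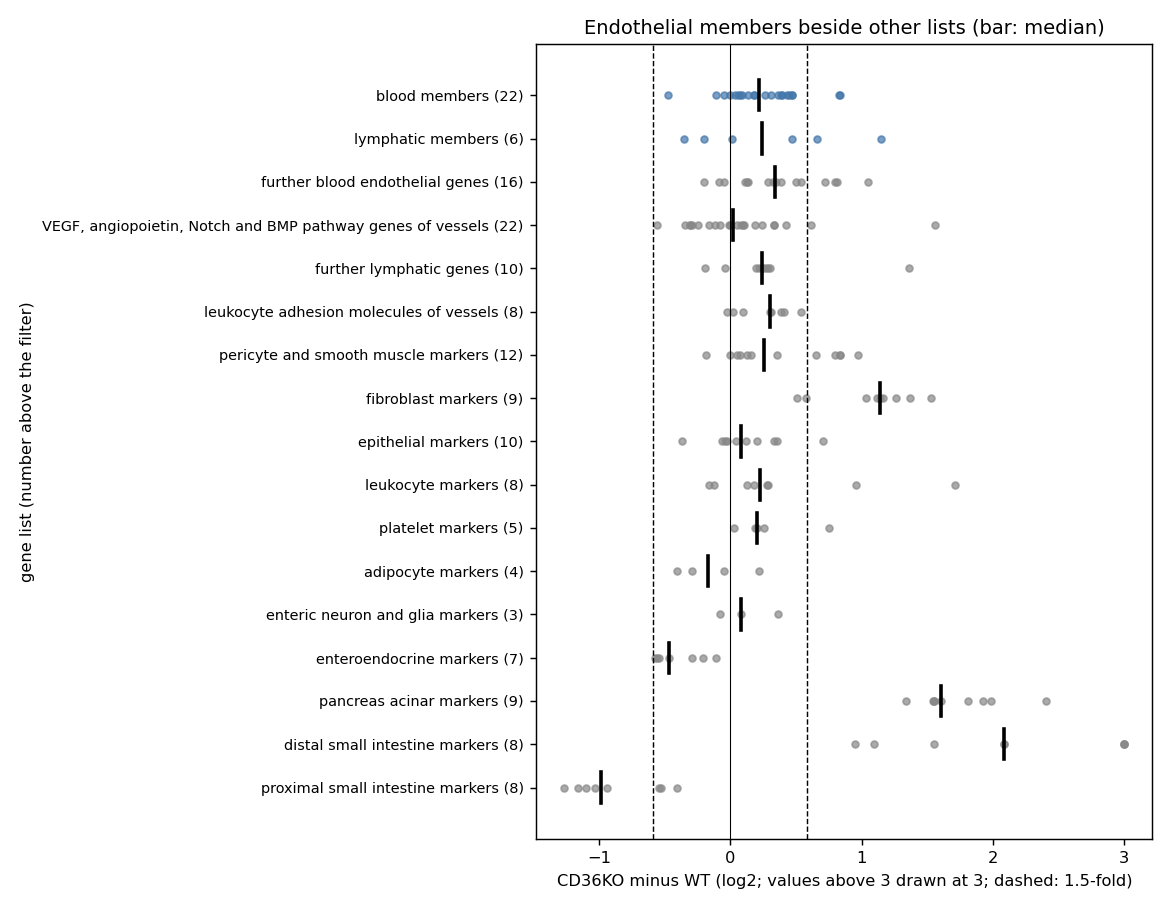
CD36KO minus WT difference (horizontal axis, log2) of the genes above the filter in each list (vertical axis, with their number); points are genes, black bars medians, dashed lines 1.5-fold, and values above 3 are drawn at 3. The medians of the blood and lymphatic genes, 0.22 and 0.25, stand beside 0.34 for further blood endothelial genes, 0.02 for vessel pathway genes, 0.26 for mural markers (0.13 to 0.65 under other settings) and 1.14 for fibroblast markers (0.71 with the mean over probe sets).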

How the data were processed

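Gene expression was measured on 2 Affymetrix arrays, 1 pool of 3 animals per genotype per the labels' protocols. The authors deposited 1 table of 45101 probe sets with log2 values; the scale was judged from their range (up to 14.2), and no source used here names the summarization or normalization behind them. The table has no detection calls. Of the probe sets, 34958 had 1 gene symbol in the array's annotation, 932 had several (2 of them included Ramp2 and were not used) and 9211 were unnamed here. Gene IDs of 34754 matched RefSeq (GRCm38.p6), which changed 0 symbols.

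Differences are CD36KO minus WT of the deposited values, with no further normalization. Each gene took its probe set of highest mean; the filter was the 50th percentile (4.51) of the higher value. All 35 genes were named, with up to 4 genes of largest absolute difference in each other list, apart from those marked in the text. Members and lists were chosen with earlier results of these data known. Summed signals are sums of 2 to the power of the values. Alternatives covered scaling, probe sets, filters and folds. The procedure was tested on simulated data with planted shifts larger than any difference of the 35 genes. That run therefore does not cover differences of the size reported here. Scripts used NumPy 2.4.6 and pandas 2.3.3 under Python 3.11.15, with lowess from statsmodels 0.14.6 and plots from matplotlib 3.10.9.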

Additional observations from a re-analysis of the deposited data

How the results depend on the processing

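The blood count of 2 genes past 1.5-fold was also 2 under centring, quantile normalization, lowess removal, the mean over probe sets, the probe set of smallest difference, no _x_at or _s_at probe sets, and no filter. It was 0 with the 75th percentile filter, 0 at 2-fold, 10 at the lower threshold of 25% higher or 20% lower (1 of them lower) and 1 with a filter on the mean of both arrays (chosen after seeing the data), which leaves out Pecam1. The lymphatic count of 2 was 1 with the mean over probe sets, 0 with the probe set of smallest difference, 0 with the 75th percentile filter, 1 at 2-fold and 4 at the lower threshold (1 of them lower).

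The blood median lay between 0.18 and 0.23 under every alternative run. The lymphatic median was -0.0069 with the mean over probe sets, 0.016 with the probe set of smallest difference, 0.046 with no filter and -0.35 with the 75th percentile filter, which keeps 1 gene, so its direction depends on the probe set and filter. Of the single genes, Lyve1 lost its call with the mean over probe sets (0.39) and with the probe set of smallest difference (0.13), and Vegfc fell below the filter with the latter. List medians of other cells and pathways moved by over 1.5 times or changed sign in 29 of 143 recomputations. The scalings moved the median of all genes by less than 0.1. Signal over background is unknown, which limits the 7 genes below the filter and the 3 that passed it through CD36KO alone. No replicate could be left out. No paired analysis was possible because each genotype is 1 array and no test was run.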
